A study of Mus musculus with 18 samples.

Results

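Wnt feedback targets are genes that canonical Wnt signalling switches on and whose products act back on the pathway. The 10 described here, Axin2, Nkd1, Lef1, Tcf7, Sp5, Notum, Dkk1, Rnf43, Znrf3 and Lgr5, were picked by gene symbol from a table of 54532 genes, and each symbol matched 1 row. The 18 RNA-seq libraries come from ES-E14TG2a, a mouse embryonic stem cell line. Cells named Arf-B, Arf-C and Ctrlv2 were differentiated towards the pancreatic lineage and sampled on day 8 and day 0, with 3 libraries per group. The series title names p19Arf. All libraries, those of the Arf lines too, carry the genotype label wild type. The sources used here do not give how the Arf lines were made or whether each is 1 clone. Day 8 cells of all 3 lines had received activin A (20 ng/mL) with Matrigel from day 0, then retinoic acid (written as 5 μM/ml in the labels, a unit left as it stands) and FGF10 (10 ng/mL) from day 4. Replicates are numbered but not stated to be separate cultures, so p-values measure only the spread between these libraries.

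In canonical Wnt signalling, a Wnt ligand bound to a Frizzled receptor and an Lrp5 or Lrp6 co-receptor stops a destruction complex from degrading beta-catenin, which then works with TCF and LEF factors on target genes. Several targets close a loop: Axin2 and Nkd1 restrain the pathway inside the cell, Notum and Dkk1 restrain it outside, and Rnf43 and Znrf3 remove Frizzled receptors unless R-spondins and Lgr receptors such as Lgr5 hold them back. In embryonic stem cells Wnt signalling is known to favour self-renewal, and during gastrulation it takes part in the formation of mesoderm and endoderm.

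Reads on genes, recovered from the steps of the deposited values, ranged from 10432590 to 33311220 per library (at day 8, 17103466 to 22222425 in Arf-B, 14598683 to 15678839 in Arf-C and 10432590 to 14709983 in Ctrlv2 cells). Cdkn2a, whose row joins the transcripts for p19Arf and p16Ink4a and so is no test of p19Arf alone, lay between 40.1 and 44.7 FPKM in Arf-B cells, between 42.6 and 46.3 in Arf-C cells and between 32.0 and 34.3 in Ctrlv2 cells at day 8. FPKM are fragments scaled to gene length and library size. At day 0 it lay between 1.68 and 2.15 in Arf-B cells, between 2.18 and 2.37 in Arf-C cells and between 1.89 and 3.36 FPKM in Ctrlv2 cells. The 6 naive pluripotency markers examined summed to medians of 116.2, 135.6 and 42.2 FPKM at day 8 in Arf-B, Arf-C and Ctrlv2 cells, against 1088, 1256 and 1181 FPKM at day 0. The 6 definitive endoderm markers summed to medians of 8.31 (Arf-B), 9.77 (Arf-C) and 9.76 FPKM (Ctrlv2) at day 8, against 3.53, 4.52 and 4.91 at day 0. Of these, Foxa2 averaged 4.29, 5.71 and 3.91 FPKM at day 8, against 0.0551, 0.0482 and 0.0373 at day 0. Sox17, a defining endoderm factor, averaged 0.233, 0.257 and 1.17 FPKM at day 8, against 0.0578, 0.0837 and 0.0798 at day 0. Cxcr4 and Hhex went the other way in every line. Cxcr4 averaged 0.462, 0.402 and 0.259 FPKM at day 8, against 0.704, 1.02 and 0.653 at day 0. Hhex averaged 1.72, 1.71 and 2.02 FPKM at day 8, against 2.27, 2.36 and 3.14 at day 0. Eomes was higher at day 8 in every line, and Gsc in Arf-B and Ctrlv2 cells. In bulk RNA, fewer cells of a type and less RNA per cell cannot be told apart.

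RefSeq windows of 300 bases (250 before and 50 after a transcription start, GRCm38.p6) were given for 7 of the 10 members in 12 windows; Notum, Znrf3 and Lgr5 are not among them. They were searched on both strands for 2 cores of TCF and LEF binding sequences, CTTTGA and CTTTGT, which do not overlap each other. A core was present in 3 of the 12 windows (25%), and in 31.2% of the 32851 windows of the table. More than 1 core was found in 6.68% of all windows, and the Sp5 window held 5, the Dkk1 window 3 and 1 of the 4 Lef1 windows 3. A match is a description, not a site or a cause, and no match says only that these letters are not in this window. Those 3 windows are printed 5′ to 3′ on the gene's strand with the cores in capitals, together with the Axin2 window, because Axin2 and Dkk1 differed in opposite directions between lines at day 8. The windows are chr11:108920099-108920398 (plus strand) for Axin2, chr19:30549447-30549746 (minus strand) for Dkk1, chr2:70474673-70474972 (plus strand) for Sp5 and chr3:131156044-131156343 (plus strand) for Lef1. The Lef1 window lies inside the gene, at an internal RefSeq start.
Axin2: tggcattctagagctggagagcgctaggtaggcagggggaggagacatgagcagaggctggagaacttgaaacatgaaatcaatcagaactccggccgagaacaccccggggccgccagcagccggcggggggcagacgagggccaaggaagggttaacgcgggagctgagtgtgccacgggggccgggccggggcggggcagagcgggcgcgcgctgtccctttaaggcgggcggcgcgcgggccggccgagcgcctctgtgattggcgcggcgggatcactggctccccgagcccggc
Dkk1: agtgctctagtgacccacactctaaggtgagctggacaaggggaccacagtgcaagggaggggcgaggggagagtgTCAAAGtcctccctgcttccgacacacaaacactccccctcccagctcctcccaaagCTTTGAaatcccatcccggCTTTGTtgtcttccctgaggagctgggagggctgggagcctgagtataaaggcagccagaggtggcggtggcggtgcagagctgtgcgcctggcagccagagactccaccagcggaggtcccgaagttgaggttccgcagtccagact
Sp5: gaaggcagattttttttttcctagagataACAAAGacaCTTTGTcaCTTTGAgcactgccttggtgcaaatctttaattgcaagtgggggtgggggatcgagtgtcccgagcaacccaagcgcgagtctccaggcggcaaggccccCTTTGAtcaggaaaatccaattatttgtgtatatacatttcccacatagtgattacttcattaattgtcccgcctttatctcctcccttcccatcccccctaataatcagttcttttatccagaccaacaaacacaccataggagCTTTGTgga
Lef1 internal start: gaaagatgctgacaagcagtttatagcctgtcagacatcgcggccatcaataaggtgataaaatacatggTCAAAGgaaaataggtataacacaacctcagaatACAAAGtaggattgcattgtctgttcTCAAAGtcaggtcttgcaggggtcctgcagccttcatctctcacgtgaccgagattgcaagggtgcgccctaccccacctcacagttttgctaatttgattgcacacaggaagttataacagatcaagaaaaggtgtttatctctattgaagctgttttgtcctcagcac

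In Arf-B and Arf-C cells Axin2 stood higher than in Ctrlv2 cells on both days, with read ratios of 2.53 to 3.09, Lef1 was detected at day 0 while Ctrlv2 cells had almost none, Notum stood higher at day 8, and Dkk1 stood lower at day 8. Values were tested as log2(FPKM + 1) with limma over 17200 genes that reached 0.5 FPKM in at least 3 libraries, and a gene was called at a Benjamini-Hochberg adjusted p below 0.05. All log2 differences are on that scale and understate changes of low genes. Of the 10 members, 8 passed the filter and Lef1 and Lgr5 did not. Dkk1 passed through the 3 Ctrlv2 libraries at day 8 alone, Sp5 through 4 and Rnf43 through 3 libraries of the Arf lines at day 8, and Nkd1 through the 9 libraries of day 8, with none of these 4 members reaching 0.5 FPKM at day 0. They passed where they are high. The filter thus partly fixes the day 8 differences between lines of Dkk1, Sp5 and Rnf43, and the differences by day of all 4 members. The counts of members are a description that supports nothing.

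At day 8, 4 tested members were called higher and 1 lower in Arf-B than in Ctrlv2, where 16.3% and 16.9% of all tested genes were called in those directions. In Arf-C 5 were called higher and 1 lower, against 16.8% and 16.8% of all tested genes. Axin2, Nkd1, Notum and Rnf43 were higher and Dkk1 was lower in both lines, and Sp5 was called in Arf-C alone. At day 0, 2 members were called higher in Arf-B, Axin2 and Notum, and none lower, against 19.1% and 20% of all genes. In Arf-C, Axin2 was the 1 member called higher and none was lower, against 21.2% and 21.5%. Beside the counts of none called lower at day 0, limma put no member lower at an unadjusted p below 0.05 in either line, and none was called lower under the alternatives run. Both Arf lines were compared with the same 3 Ctrlv2 libraries, so their differences are not independent. Scaled to the same sum, 68.9% and 63.55% of the calls at day 8 were higher in Arf-B and Arf-C, against 49.05% and 50.04% as reported here.

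**Figure D1:**
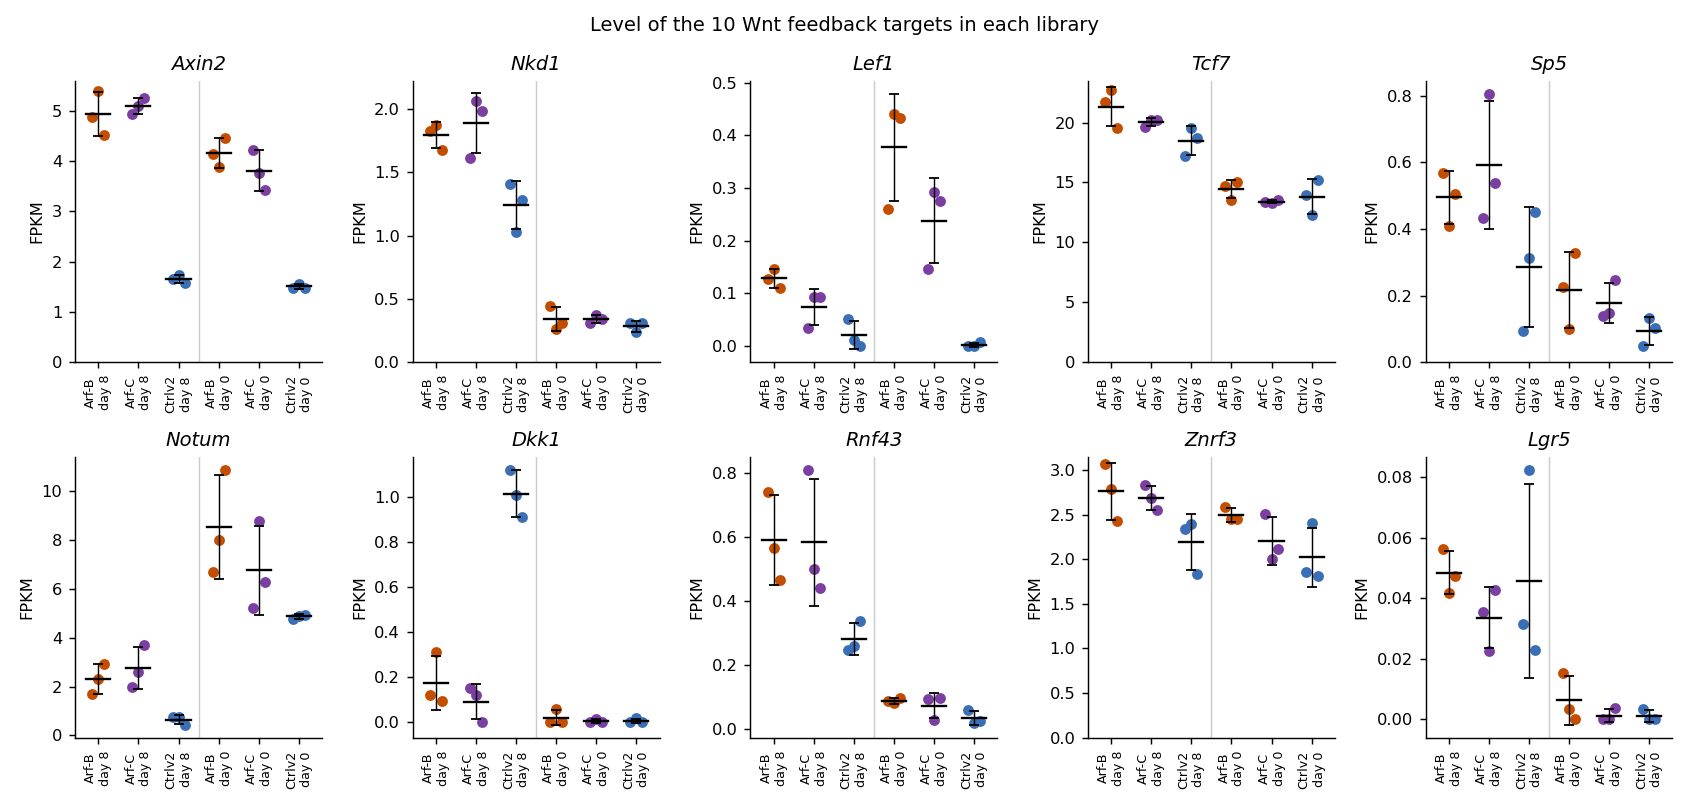
FPKM of the 10 members in every library (points, 3 per group), with the group mean (black bar) and SD (error bar), day 8 groups left of the grey line and day 0 groups right of it. All 12 Arf libraries lie above all 6 Ctrlv2 libraries for Axin2, and Dkk1 is highest in the 3 Ctrlv2 libraries at day 8.

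From day 0 to day 8, Nkd1, Tcf7 and Rnf43 rose and Notum fell in all 3 lines. In Arf-B 5 members were called higher at day 8 and 1 lower, where 32.9% and 33.8% of all tested genes were called. In Arf-C it was also 5 and 1, against 32.8% and 33.8%. In Ctrlv2 4 were called higher and 1 lower, against 33.9% and 34.4%. Axin2 and Sp5 were called higher in both Arf lines, and Dkk1 in Ctrlv2. Of these members, Nkd1, Rnf43, Sp5 and Dkk1 passed the filter through day 8 libraries alone. Scaled to the same sum, the median log2 differences over all tested genes were 0.13 and 0.11 in Arf-B and Arf-C, against -0.02 and -0.02, and 62.2% and 60.1% of their calls were higher, against 49.4% and 49.2%.

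**Figure D2:**
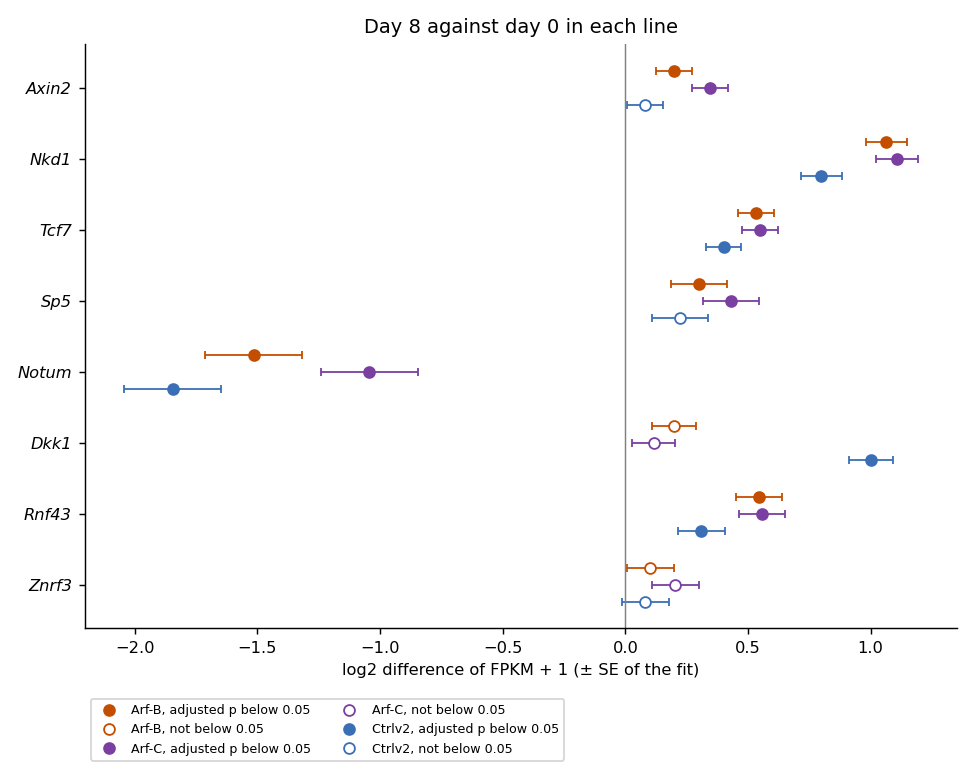
Log2 difference of FPKM + 1, day 8 minus day 0, for the 8 tested members in Arf-B, Arf-C and Ctrlv2 (points, with the SE of the limma fit). Filled points have an adjusted p below 0.05: Notum is the only member left of 0, and Dkk1 is filled in Ctrlv2 alone.

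Axin2 and Nkd1 act inside the cell. Axin2, a scaffold of the destruction complex (chr11:108920349-108950783, plus strand, 7 transcripts in GENCODE vM21, in mm10 like all positions here), read 4.88, 5.39 and 4.52 FPKM in Arf-B cells and 4.93, 5.09 and 5.24 in Arf-C cells at day 8, against 1.66, 1.73 and 1.56 in Ctrlv2 cells. At day 0 it read 4.15, 3.87 and 4.47 FPKM in Arf-B cells and 4.23, 3.77 and 3.42 in Arf-C cells, against 1.47, 1.56 and 1.48 in Ctrlv2 cells. The lowest Arf library of either day lay above the highest Ctrlv2 library. The limma log2 difference from Ctrlv2 at day 8 was 1.16 ± 0.07 in Arf-B (SE, adjusted p = 1.23e-08) and 1.20 ± 0.07 in Arf-C (adjusted p = 8.49e-09). At day 0 it was 1.04 in Arf-B (adjusted p = 2.75e-08) and 0.94 in Arf-C (adjusted p = 7.6e-08). Summed reads scaled to library size gave ratios to Ctrlv2 of 2.97 (95% exact interval 2.65 to 3.34) in Arf-B and 3.09 (2.75 to 3.48) in Arf-C at day 8. These intervals, like all intervals on reads given here, cover counting error only.

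Axin2 also moved with time in the Arf lines. Day 8 exceeded day 0 by 0.34 ± 0.07 log2 in Arf-C (SE, adjusted p = 0.000592) and by 0.20 in Arf-B (adjusted p = 0.0249), while in Ctrlv2 the difference was 0.08 (adjusted p = 0.34). The rise in Arf-B ended with a fit to its own groups (adjusted p = 0.0578), without day 0 replicate 1 (0.0549) or 2 (0.105), and without day 8 replicate 2 (0.128). The day response of Arf-C minus that of Ctrlv2 was 0.26 (adjusted p = 0.056), which passed without Arf-C day 0 replicate 1 (adjusted p = 0.0225) and with libraries scaled to the same sum (0.0314). In mean level, day 8 Arf-C (5.09 ± 0.157 FPKM) came before day 8 Arf-B (4.93 ± 0.441), day 0 Arf-B (4.16 ± 0.297), day 0 Arf-C (3.81 ± 0.403), day 8 Ctrlv2 (1.65 ± 0.0821) and day 0 Ctrlv2 (1.505 ± 0.0495; SD, n = 3 each). The libraries of the Arf lines overlapped within each day.

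Nkd1 (chr8:88521354-88594884, plus strand), which binds Dishevelled and restrains the pathway, read 1.83, 1.88 and 1.68 FPKM in Arf-B cells and 1.62, 2.06 and 1.99 in Arf-C cells at day 8, against 1.41, 1.03 and 1.28 in Ctrlv2 cells. Every Arf library lay above every Ctrlv2 library. The log2 difference from Ctrlv2 was 0.32 ± 0.08 in Arf-B (SE, limma adjusted p = 0.00841) and 0.37 ± 0.08 in Arf-C (adjusted p = 0.00343). At day 0 the 3 lines overlapped between 0.235 and 0.444 FPKM. Nkd1, which passed the filter at day 8 alone, rose with time by 1.06 log2 in Arf-B (adjusted p = 1.54e-08), 1.11 in Arf-C (adjusted p = 9.95e-09) and 0.80 in Ctrlv2 (adjusted p = 4.01e-07). The difference of these rises missed the threshold, at 0.26 for Arf-B (adjusted p = 0.104) and 0.31 for Arf-C (adjusted p = 0.0546), and that of Arf-C passed without Ctrlv2 day 8 replicate 1 (adjusted p = 0.0319) or Arf-C day 8 replicate 1 (0.0229).

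Among the transcription factors, Lef1 and Tcf7 are DNA-binding partners of beta-catenin, and Sp5 is a zinc finger factor that represses other Wnt targets. Lef1 (chr3:131110471-131224356, plus strand) was low throughout. At day 8 it read 0.127, 0.147 and 0.111 FPKM in Arf-B cells and 0.034, 0.093 and 0.093 in Arf-C cells, against 0.052, 0.011 and 0 in Ctrlv2 cells. At day 0 it read 0.259, 0.439 and 0.432 FPKM in Arf-B cells and 0.145, 0.293 and 0.276 in Arf-C cells, against 0, 0 and 0.007 in Ctrlv2 cells. Neither Arf line overlapped Ctrlv2 at day 0, and at day 8 Arf-B did not overlap it while Arf-C did. At day 0 the 3 libraries together held 266 Lef1 reads in Arf-B cells and 167 in Arf-C cells, against 2 in Ctrlv2 cells, ratios for library size of 140.3 (95% exact interval 38.4 to 1164) and 92.1 (25.1 to 766.7). With 73 and 32 reads against 8 at day 8, the ratios were 5.40 (2.60 to 12.97) and 3.12 (1.41 to 7.85).

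The Lef1 read ratio of day 8 to day 0 was 0.345 (95% exact interval 0.262 to 0.448) in Arf-B cells and 0.304 (0.2015 to 0.446) in Arf-C cells. Because Lef1 did not pass the filter, it was not tested with the other members. An exact permutation test of 3 against 3 libraries gave p = 0.1 in each Arf line against Ctrlv2 at day 0, the smallest p this design allows, and 0.2 adjusted over 18 such tests of Lef1 and Lgr5. Without a filter, limma gave 0.46 log2 in Arf-B (adjusted p = 6.22e-05) and 0.30 in Arf-C (adjusted p = 0.00169) at day 0, and 0.14 (adjusted p = 0.126) and 0.07 (adjusted p = 0.491) at day 8. In that fit Lef1 was lower at day 8 than at day 0 in Arf-B (-0.28, adjusted p = 0.00115) and in Arf-C (-0.20, adjusted p = 0.0129).

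Tcf7 (chr11:52252371-52283014, minus strand) was the most abundant member per length. It read 21.7, 22.7 and 19.6 FPKM in Arf-B cells and 19.65, 20.21 and 20.25 in Arf-C cells at day 8, against 17.2, 19.6 and 18.7 in Ctrlv2 cells, and lay between 12.25 and 15.2 FPKM in the 9 libraries of day 0. The day 8 libraries lay above the day 0 libraries in every line. The rises were 0.53 log2 in Arf-B (limma adjusted p = 7.97e-06), 0.55 in Arf-C (adjusted p = 6.04e-06) and 0.40 in Ctrlv2 (adjusted p = 0.00014). Tcf7 was not called between lines: at day 8 the difference was 0.19 ± 0.07 in Arf-B (SE, adjusted p = 0.052) and 0.11 in Arf-C (adjusted p = 0.267). The value in Arf-B passed under 7 of 26 alternatives, among them libraries scaled to the same sum (adjusted p = 0.00339) and leaving out Ctrlv2 day 8 replicate 2 (adjusted p = 0.0425), Ctrlv2 day 0 replicate 2 (0.026) or 3 (0.0388) or Arf-B day 8 replicate 3 (0.0251).

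Sp5 (chr2:70474923-70477729, plus strand) stayed under 1 FPKM. At day 8 it read 0.570, 0.410 and 0.506 FPKM in Arf-B cells and 0.432, 0.807 and 0.539 in Arf-C cells, against 0.093, 0.314 and 0.451 in Ctrlv2 cells, on 3 to 29 reads per library. Each Arf line overlapped Ctrlv2. Sp5 passed the filter through 2 Arf-B and 2 Arf-C libraries at day 8 alone, so its differences are partly fixed by the filter. The difference from Ctrlv2 was 0.31 log2 in Arf-C (limma adjusted p = 0.0483), a call that was lost under 17 of 25 alternatives (adjusted p up to 0.205, reached without Ctrlv2 day 8 replicate 1 or Arf-C day 8 replicate 2), and 0.23 in Arf-B (adjusted p = 0.151). Sp5 rose with time by 0.43 in Arf-C (adjusted p = 0.00363) and by 0.30 in Arf-B (adjusted p = 0.0312), the second lost under 5 of 25 alternatives (up to 0.133, without Arf-B day 0 replicate 2). In Ctrlv2 the difference was 0.22 (adjusted p = 0.098), which passed without its day 8 replicate 1 (0.017). Read ratios by day were 2.41 (exact interval 1.59 to 3.71) in Arf-B, 3.39 (2.15 to 5.47) in Arf-C and 2.90 (1.47 to 5.82) in Ctrlv2. At day 0 Sp5 was not called between lines (limma adjusted p = 0.344 in Arf-B and 0.516 in Arf-C). Read ratios to Ctrlv2 there were 2.23 (1.22 to 4.24) in Arf-B, which overlapped, and 1.88 (0.9998 to 3.65) in Arf-C, without overlap. The Sp5 window printed above held the most cores of the member windows.

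The secreted members moved in opposite directions. Notum, an enzyme that removes the lipid from Wnt ligands, read 1.71, 2.30 and 2.94 FPKM in Arf-B cells and 1.98, 2.60 and 3.71 in Arf-C cells at day 8, against 0.754, 0.743 and 0.426 in Ctrlv2 cells. Every Arf library lay above every Ctrlv2 library. The log2 difference was 1.01 ± 0.20 in Arf-B (SE, limma adjusted p = 0.00107) and 1.18 ± 0.20 in Arf-C (adjusted p = 0.000283). At day 0 it read 6.70, 8.02 and 10.9 FPKM in Arf-B cells and 5.23, 8.78 and 6.28 in Arf-C cells, against 4.76, 4.91 and 4.94 in Ctrlv2 cells. Both Arf lines again lay above Ctrlv2 without overlap, and the difference was 0.68 in Arf-B (adjusted p = 0.0129) and 0.38 in Arf-C (adjusted p = 0.142). The call in Arf-B was lost without its day 0 replicate 3 (adjusted p = 0.0686).

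Notum fell with time in every line, by 1.52 log2 in Arf-B (limma adjusted p = 5.06e-06), 1.04 in Arf-C (adjusted p = 0.000222) and 1.84 in Ctrlv2 (adjusted p = 4.97e-07). The fall in Arf-C was smaller than that in Ctrlv2 by 0.80 ± 0.28 (SE, adjusted p = 0.0338), a difference lost under 9 of 26 alternatives (adjusted p up to 0.0901, reached without Arf-C day 8 replicate 3), and for Arf-B the difference was 0.33 (adjusted p = 0.402). Notum lies on the minus strand (chr11:120653788-120661175) and overlaps Notumos and Myadml2os on the plus strand, and the sources used here do not give whether reads were counted by strand. Notumos averaged 0.376 (Arf-B), 0.539 (Arf-C) and 0.0198 FPKM (Ctrlv2) at day 8, and 0.960, 0.619 and 0.513 at day 0, and Myadml2os 0.709, 0.443 and 0.532 at day 0. Without strand, reads of the overlapping genes cannot be told apart.

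Dkk1 (chr19:30545863-30549665, minus strand), a secreted inhibitor that binds the Lrp co-receptors, read 0.119, 0.310 and 0.091 FPKM in Arf-B cells and 0.1495, 0.120 and 0 in Arf-C cells at day 8, against 1.12, 1.01 and 0.911 in Ctrlv2 cells. All 6 Arf libraries lay below all 3 Ctrlv2 libraries. These levels stood for 26 and 11 reads against 96, ratios of 0.160 (95% exact interval 0.0996 to 0.249) in Arf-B and 0.0895 (0.0432 to 0.167) in Arf-C. The log2 difference was -0.78 ± 0.09 in Arf-B (SE, limma adjusted p = 6.94e-06) and -0.89 ± 0.09 in Arf-C (adjusted p = 1.88e-06). At day 0 Dkk1 had 4, 1 and 1 reads in the 3 lines. It rose in Ctrlv2 by 1.00 log2 (adjusted p = 4.8e-08), and the differences in Arf-B (0.20, adjusted p = 0.0598) and Arf-C (0.11, adjusted p = 0.27) were not called, although that of Arf-B passed under 4 of 25 alternatives. On reads, day 8 stood above day 0 in every line. The ratio was 8.17 (95% exact interval 2.83 to 32.2) in Arf-B and 17.5 (2.54 to 751.4) in Arf-C, whose libraries overlapped between days. In Ctrlv2 it was 215.1 (37.7 to 8584). The day response minus that of Ctrlv2 was -0.80 ± 0.13 in Arf-B (adjusted p = 0.000171) and -0.89 ± 0.13 in Arf-C (adjusted p = 6.15e-05). Dkk1 entered the test through the Ctrlv2 libraries at day 8 alone. Its window printed above holds 3 cores, and any link of cores to the differences between lines was not tested.

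At the receptors, Rnf43 and Znrf3 are ligases that mark Frizzled for removal, and Lgr5 is an R-spondin receptor. Rnf43 (chr11:87662722-87735539, plus strand) read 0.742, 0.566 and 0.466 FPKM in Arf-B cells and 0.811, 0.499 and 0.441 in Arf-C cells at day 8, against 0.247, 0.258 and 0.337 in Ctrlv2 cells. Every Arf library lay above every Ctrlv2 library. The log2 difference was 0.31 ± 0.09 in Arf-B (SE, limma adjusted p = 0.0191) and 0.30 ± 0.09 in Arf-C (adjusted p = 0.0226). Rnf43 passed the filter through 2 Arf-B libraries and 1 Arf-C library at day 8 alone, so these differences are partly fixed by the filter. The calls were lost under 4 of 25 alternatives in Arf-B and 6 of 25 in Arf-C, among them a fit to these groups alone (adjusted p = 0.0689 and 0.116), reads thinned to the smallest library (0.0584 and 0.0732), leaving out Ctrlv2 day 8 replicate 1 (0.05 and 0.0577), Ctrlv2 day 8 replicate 2 for Arf-C (0.0559) and day 8 replicate 1 of the Arf line itself (0.0896 and 0.116). When the filter was applied again, Rnf43 was no longer tested without Arf-B day 8 replicate 1 or 2 or Arf-C day 8 replicate 1. Rnf43 rose with time by 0.54 in Arf-B (adjusted p = 8.84e-05), 0.56 in Arf-C (adjusted p = 7.37e-05) and 0.31 in Ctrlv2 (adjusted p = 0.00839).

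Znrf3 (chr11:5276324-5444847, minus strand) was not called in any comparison as reported here. It lay between 2.43 and 3.06 FPKM in Arf-B cells, 2.55 and 2.83 in Arf-C cells and 1.83 and 2.40 in Ctrlv2 cells at day 8, without overlap between the Arf lines and Ctrlv2. The log2 difference was 0.24 ± 0.10 in Arf-B (SE, limma adjusted p = 0.0686) and 0.21 ± 0.10 in Arf-C (adjusted p = 0.102). The value in Arf-B passed under 4 of 26 alternatives, among them leaving out Ctrlv2 day 0 replicate 2 (adjusted p = 0.0459) or Arf-B day 8 replicate 3 (0.0429). At day 0 the Arf-B difference was 0.22 (adjusted p = 0.0871) and passed without Ctrlv2 day 0 replicate 2 (0.0214). Day 8 exceeded day 0 by 0.20 in Arf-C (adjusted p = 0.0716), which passed under 4 of 26 alternatives, namely scaling to the same sum (0.00953), the replicate block (0.0467) and leaving out Ctrlv2 day 0 replicate 2 (0.0489) or Arf-C day 0 replicate 1 (0.0327). In Arf-B the day difference was 0.10 (adjusted p = 0.366) and passed with scaling to the same sum (0.0349). Lgr5 (chr10:115450311-115587780, minus strand) stayed at or below 0.083 FPKM in every library, with 33, 17 and 17 reads at day 8 in Arf-B, Arf-C and Ctrlv2 cells against 6, 1 and 1 at day 0. A difference between lines was not detectable at this depth: the read ratio to Ctrlv2 at day 8 was 1.15 (95% exact interval 0.621 to 2.20) in Arf-B and 0.781 (0.375 to 1.63) in Arf-C. Without a filter, limma gave Lgr5 a day difference of 0.06 in Arf-B (adjusted p = 0.0118), 0.05 in Arf-C (adjusted p = 0.048) and 0.06 in Ctrlv2 (adjusted p = 0.00816). The exact permutation test gave p = 0.1 by day in each line, the smallest this design allows, and 0.2 adjusted.

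**Figure D3:**
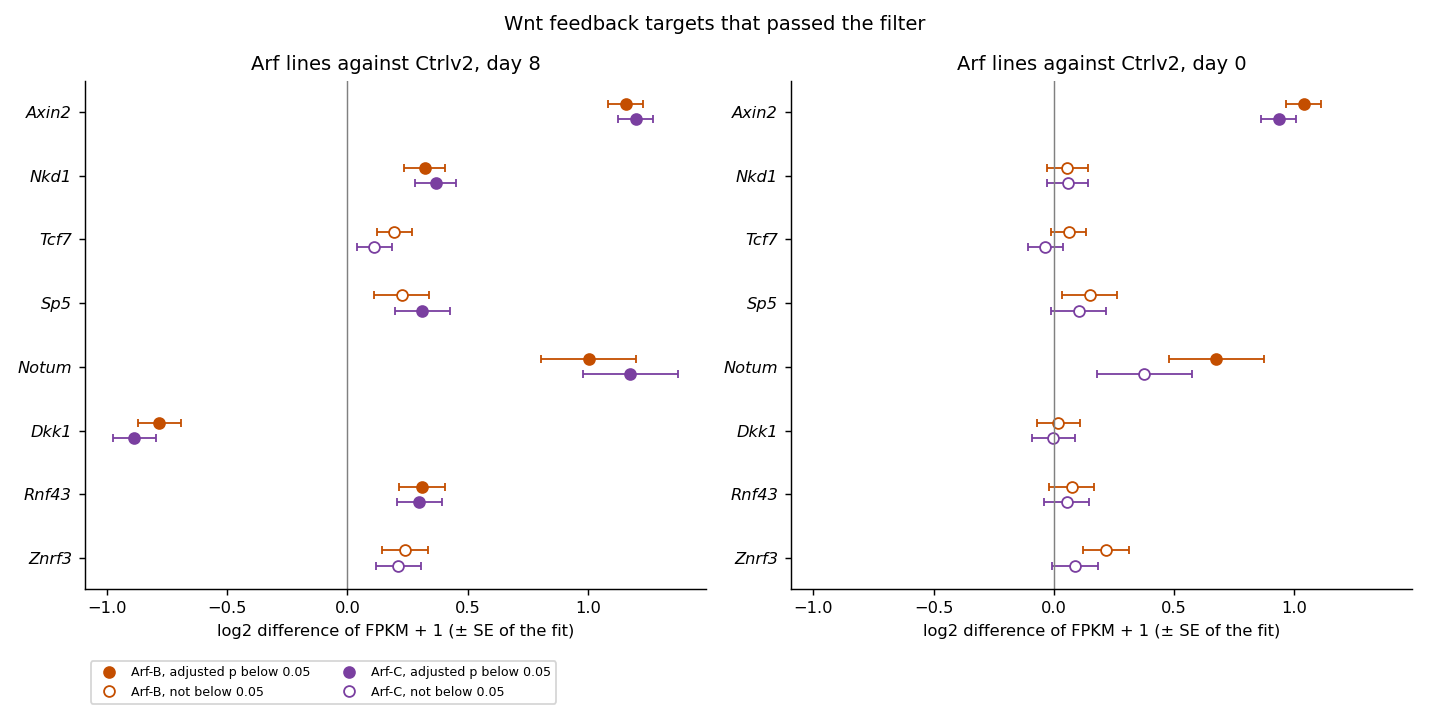
Log2 difference of FPKM + 1 from Ctrlv2 for the 8 tested members in Arf-B and Arf-C (points, with the SE of the limma fit) at day 8 (left) and day 0 (right). Filled points have an adjusted p below 0.05: at day 8 Axin2 and Notum lie near 1 and Dkk1 lies at -0.78 and -0.89.

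The day response differed from that of Ctrlv2 for 1 member in Arf-B, Dkk1, which was lower, and none higher (Nkd1 was the 1 member higher at an unadjusted p below 0.05), where 16.1% of all tested genes were lower and 17.5% higher. In Arf-C Notum was higher and Dkk1 lower, against 19.4% and 18.9%. Scaled to the same sum, 64.2% of the Arf-B calls were higher, against 52.1%. Axin2 and Nkd1 in Arf-C, at adjusted p of 0.056 and 0.0546, lay close to the threshold. No tested member was called between the Arf lines: limma called none at day 0, where 0.105% of all genes were higher and 0.238% lower in Arf-B than in Arf-C, and none at day 8, where 0.0349% and 0.0233% were. Tcf7 at day 0 was without overlap by a narrow margin (lowest Arf-B library 13.57 FPKM, highest Arf-C library 13.56). The untested Lef1 was without overlap at day 8 (0.111 and 0.093 FPKM). At an unadjusted p below 0.05 the count among the 8 tested members was 0 on both days, and no member was called under the alternatives run. Without a filter, Lef1 had an unadjusted limma p of 0.0216 at day 0 (adjusted p = 0.522). The widest member difference was that of Notum at day 0, 0.30 ± 0.20 log2 (SE, adjusted p = 0.654). A p that misses the threshold does not show that the lines are equal.

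Around the members, the rest of the pathway moved in both directions, and the counts of each list stand beside the shares of all tested genes called at day 8, which for Arf-B were 16.3% higher and 16.9% lower and for Arf-C 16.8% and 16.8%. Of 11 tested genes for Wnt ligands and their secretion, Arf-B had 6 higher and 4 lower at day 8, and Arf-C had 5 higher and 4 lower. The acyltransferase Porcn, needed for Wnt secretion, averaged 22.7 ± 4.00 and 26.8 ± 7.59 FPKM in Arf-B cells and Arf-C cells, against 7.77 ± 0.610 in Ctrlv2 cells (SD, n = 3 each; limma adjusted p = 3.67e-06 and 9.07e-07), and the ligand Wnt11 averaged 0.583 and 0.646 against 2.62 FPKM. Of 15 receptors and co-receptors, Arf-B had 6 higher and 4 lower, and Arf-C had 5 and 4. The receptor Fzd10 averaged 4.37 and 4.32 FPKM in the Arf lines against 1.06 in Ctrlv2 cells, and Ror2 averaged 11.2 and 11.4 against 4.83. Of the 16 genes of the destruction complex and Dishevelled, Arf-B had none higher and 4 lower, and Arf-C had 1 and 4, with the kinase Csnk1e at 14.4 and 13 FPKM against 23.1 and the tankyrase Tnks, which marks Axin proteins for degradation, at 8.62 and 8.81 against 13.6.

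Of 12 nuclear partners of beta-catenin 4 were higher and 3 lower in each Arf line at day 8. The widest difference among the named genes of this list was that of Tcf7l1, a TCF factor known mainly as a repressor, at 5.31 ± 0.411 and 4.45 ± 0.676 FPKM in Arf-B cells and Arf-C cells against 31.5 ± 0.826 in Ctrlv2 cells (SD, n = 3 each), a log2 difference of -2.37 and -2.58 (limma adjusted p = 1.35e-11 and 4.32e-12). Tcf7l1 was also low at day 0, at 4.85 and 4.37 FPKM against 25.0. Bcl9, a co-activator of beta-catenin, was higher at day 8, at 9.72 and 9.38 FPKM against 6.02. Of the 6 R-spondins and other receptors 4 were higher and 1 lower in each line, with the ligand Rspo1 at 5.05 and 5.02 FPKM against 3.06 and its receptor Lgr4 at 10.1 and 10.7 against 15.6. Of 10 secreted and membrane inhibitors, Arf-B had 3 higher and 2 lower and Arf-C had 2 and 2, with Sfrp2 at 9.89 and 9.58 FPKM against 4.20 and Sfrp1 at 4.88 and 4.47 against 7.10.

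Of 10 other reported Wnt targets tested, Arf-B had 5 higher and 2 lower at day 8, and Arf-C had 5 and 3. The homeobox gene Cdx1 averaged 15.9 ± 3.71 and 15.75 ± 3.08 FPKM in Arf-B cells and Arf-C cells against 1.90 ± 0.532 in Ctrlv2 cells (SD, n = 3 each; limma adjusted p = 4.51e-08 and 4.62e-08), while Myc averaged 5.68 and 5.05 against 10.4 FPKM. At day 0 the cyclin gene Ccnd1 averaged 12.4 and 8.42 FPKM against 2.64, and Myc 9.45 and 8.15 against 19.9. Of the 15 receptors and co-receptors at day 0, Arf-B had 4 higher and 7 lower and Arf-C had 3 and 6 (19.1% and 20% of all tested genes for Arf-B, 21.2% and 21.5% for Arf-C), with Fzd7 at 27.2 and 25.6 FPKM against 13.02 and Fzd3 at 1.27 and 1.17 against 2.86. Of the 11 genes for ligands and secretion, each Arf line had 2 higher and 1 lower at day 0, with Wls at 3.14 and 4.72 FPKM against 0.873 and the ligand Wnt6 at 1.46 and 0.952 against 6.55. In the Ctrlv2 line, day 8 against day 0, the carrier Wls averaged 30.4 FPKM at day 8 and 0.873 at day 0, and the receptor Fzd2 averaged 30.5 and 0.255, while Fzd5 averaged 2.01 and 34.3. The median log2 difference of the 10 other targets at day 8 was 0.19 in Arf-B and 0.22 in Arf-C, where that of all tested genes was 0.01 in each. Medians of the remaining lists around the members ran in Arf-B from -0.05 (destruction complex and Dishevelled) to 0.43 (ligands and secretion). In Arf-C they ran from -0.07 (destruction complex and Dishevelled) to 0.39 (R-spondins and other receptors).

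**Figure D4:**
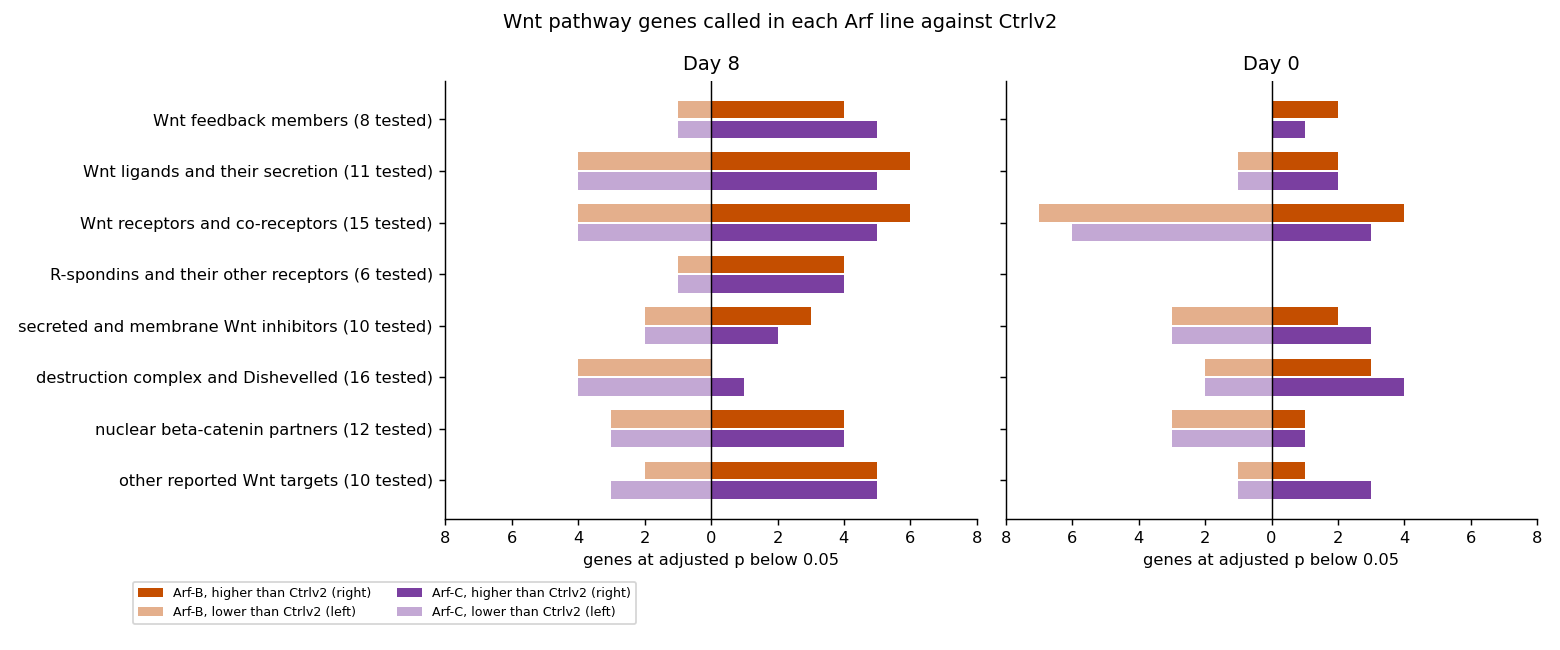
Number of genes of each Wnt pathway list called higher (right of 0) or lower (left of 0, paler) in Arf-B and Arf-C than in Ctrlv2 at day 8 (left panel) and day 0 (right panel), limma adjusted p below 0.05. Most lists hold calls in both directions, and the members have 4 and 5 higher and 1 lower at day 8.

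Markers of other cell types differed between the lines beside these results. The 6 primitive and parietal endoderm markers summed to 67.5 to 69.8 FPKM in Arf-B cells and 71.3 to 75.9 in Arf-C cells at day 8, against 292.9 to 390.5 in Ctrlv2 cells, and to medians of 41.3 and 43.8 against 133.8 at day 0. Of these markers, 4 of 5 tested were lower in each Arf line on each day. The naive pluripotency markers were higher at day 8, 5 of 6 in each Arf line, with Nanog at 34.5 and 32.8 FPKM against 0.537. The mesoderm markers summed to medians of 18.5 and 15.9 FPKM in the Arf lines against 9.65 at day 8, with Meox1 at 14.4 and 11.7 against 1.51. In the same order Foxf1 averaged 1.94 and 2.48 FPKM against 5.05, Kdr 0.31 and 0.37 against 1.165 and Tbx6 0.68 and 0.57 against 1.205. Of the 5 tested mesoderm markers Arf-B had 1 higher and 2 lower and Arf-C 1 and 3, with median log2 differences of -0.41 and -0.48. The defining marker Mesp1 was low, at 0.0447 and 0.108 FPKM in the Arf lines and 0 in Ctrlv2 cells at day 8. At day 0 Mesp1 averaged 0.0916 and 0.0885 FPKM against 0.216. The trophoblast markers summed to medians of 13.2 and 13.6 against 2.17 at day 0, mostly from Tfap2c, at 11.9 and 12.9 against 1.95 FPKM, with Elf5 averaging 0.0115 or less. Of the 5 tested trophoblast markers 1 was called higher in each Arf line at day 0, near the share of all tested genes. The neural progenitor markers summed to medians of 12.8 and 10.9 against 10.96 at day 8, and of the 4 tested each Arf line had 2 higher and 2 lower. Zic1 averaged 5.21 and 4.40 FPKM against 1.16 and Pax6 2.71 and 2.16 against 0.891, while Tubb3 averaged 4.78 and 4.27 against 7.91. The part of these cell types in the differences of the members was not tested.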

How the data were processed

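Polyadenylated RNA of 18 libraries was sequenced, per the labels. The authors deposited FPKM values for 54532 genes with gene lengths and mm10 positions, and per the submitters' processing notes used HISAT2, featureCounts and DESeq2, with versions not given in the sources used here. Gene length (another deposited column, in bases) times FPKM is a whole multiple of 1 step per library for all 413772 values above 0 (largest deviation 4.7e-05 reads, tolerance 0.001), which returned the reads. The library size implied by that step is not the sum of reads on genes, and read ratios were scaled to the implied size. It was 95.3% to 98.5% of that sum at day 0. At day 8 it was 101.8% to 104.8% in Ctrlv2 and 106.9% to 109.9% in the Arf lines. At these depths, 3 reads on 1 kilobase equal 0.093 to 0.282 FPKM. Values were tested as log2(FPKM + 1) with limma 3.58.1 (trend, robust; statmod 1.5.0, R 4.3.3), with 1 coefficient per group over all 18 libraries, for the 17200 genes reaching 0.5 FPKM in 3 or more libraries, and Benjamini-Hochberg adjustment over them. Count models were not used on these values. Low members were described with reads and exact intervals from scipy 1.17.1, and figures were drawn with matplotlib 3.10.9 in Python 3.11.15. The procedure was run on simulated data with changes of 1 log2 in genes above 1 on the log2(FPKM + 1) scale. It was not tried on lower genes or smaller changes, so it says nothing about the low members. Replicates differed beyond sampling noise (lowest chi-square per degree of freedom 4.05).

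The 10 members are named in all 11 comparisons. Of every other Wnt list, up to 2 genes were eligible with the largest difference that were called (with 1 sign in both Arf lines), had at least 1 FPKM in the higher group and had no overlap between groups, and the text reports a part of them; marker genes named as examples were chosen after their values were seen. Members and lists were chosen with earlier results of these data known. Alternatives were 8 settings (a pseudocount of 0.1, no filter, a mean of at least 1 FPKM, median-ratio scaling, scaling to the same sum, reads thinned to the smallest library, the replicate number as a block, and fits to the groups compared alone) and leaving out each of the 18 libraries.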

Additional observations from a re-analysis of the deposited data

Results flagged for a closer look

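The day response of Dkk1 differed between each Arf line and Ctrlv2 by the interaction term of the limma fit. It was -0.80 log2 in Arf-B minus Ctrlv2 (adjusted p = 0.000171) and -0.89 in Arf-C minus Ctrlv2 (adjusted p = 6.15e-05). Dkk1 passed the filter on low values through the 3 Ctrlv2 libraries at day 8 alone, so it is no longer tested when any of these is left out and the filter is applied again. The day response of Notum differed between Arf-C and Ctrlv2 by the same term, at 0.80 (adjusted p = 0.0338), and the call was lost under 9 of 26 alternatives. Both lines share the Ctrlv2 libraries, and no explanation was tested.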

How the results depend on the processing

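Low reads limit Lef1, Lgr5, Sp5 and Dkk1, and shared Ctrlv2 libraries tie both Arf comparisons together. With genes kept at a mean of 1 FPKM or more, 4 members and 13027 genes in all were tested. By day, 3 members were called in Arf-B, 3 in Arf-C and 2 in Ctrlv2. Of all genes, 4286, 4235 and 4625 were higher and 5129, 5155 and 5051 lower in these lines. At day 8, 3 members were called for Arf-B against Ctrlv2 and 2 for Arf-C. Of all genes, 2382 and 2464 were higher and 2577 and 2529 lower. The day response minus that of Ctrlv2 had 0 for Arf-B but 1 for Arf-C, where 2495 and 2796 genes were higher and 2503 and 2943 lower. With no filter, Arf-C against Ctrlv2 at day 0 had 2 called, and the day responses minus that of Ctrlv2 had 2 for Arf-B but 1 for Arf-C. Of the 33902 genes in that fit, 3315 were higher and 3891 lower in Arf-C at day 0. For the day responses, 2998 were higher and 2458 lower for Arf-B, and 3372 and 2891 for Arf-C. Scaled to the same sum, the day response of Arf-C minus that of Ctrlv2 had 4, where 3700 of 17200 genes were higher and 2673 lower. These are the larger moves only. Over the 8 settings, counts by day ran from 3 to 9 in Arf-B, 3 to 8 in Arf-C and 2 to 6 in Ctrlv2. Against Ctrlv2 at day 8 they ran from 3 to 7 in Arf-B and 2 to 7 in Arf-C. Shares of all genes are not given for every setting, and the ranges describe only how far counts moved.

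Leaving out each library in turn was run with the tested genes kept fixed, a choice made after seeing that Dkk1 or Rnf43 dropped out when the filter was applied again, and both versions are given. Counts by day were 4 to 6 (filter again 4 to 7) in Arf-B, 6 to 7 (5 to 7) in Arf-C and 5 to 6 (4 to 5) in Ctrlv2. Against Ctrlv2 they were 1 to 3 (1 to 3) for Arf-B and 1 to 1 (1 to 1) for Arf-C at day 0, and 4 to 7 (3 to 7) and 4 to 6 (3 to 6) at day 8. For the day response minus that of Ctrlv2 they were 1 to 1 (0 to 1) in Arf-B and 1 to 3 (0 to 3) in Arf-C. Shares of all tested genes were not set beside these ranges, which describe only how far the counts moved.

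After the group mean of each gene was subtracted, libraries of different groups with the same number correlated between -0.251 and 0.203 (median 0.00396). Those with different numbers correlated between -0.211 and 0.218 (median 0.00148). The ranges were similar, but with 3 libraries per group they cannot decide whether the numbers pair libraries. With the replicate block, 6 members were called in Arf-B against Ctrlv2 at day 8 (5 without it) and 7 by day in Arf-C (6 without it), and the other counts did not move. Of 17200 genes, the block fit called 2741 higher and 2851 lower in the first comparison and 5583 and 5785 in the second. Of 2244 values of single members under alternatives, 2141 kept direction and call, 46 lost a call, 29 gained one, 28 uncalled values changed sign, and 0 called values reversed. The causes were not tested.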
